A study of Mus musculus with 20 samples.

Results

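Progesterone is made from cholesterol by a short chain of proteins, and the transcripts of 6 genes of that chain are described here in mouse ovaries: Star, Cyp11a1, Fdx1, Fdxr, Hsd3b1 and Por. They were taken by gene symbol, as proteins of this chain, with earlier results of these data known. All 6 were found among the 23457 genes counted, and all 6 passed the filter on low counts that left 16099 genes for testing. Messenger RNA of the ovary was sequenced in 20 females from an Ames dwarf colony, 1 library per mouse. The 4 groups of 5 mice were normal N/df mice at 6 months, normal N/df mice at 22 months, dwarf df/df mice at 6 months and dwarf df/df mice at 22 months. Every animal therefore carried at least 1 df allele, and no mouse without it was included. Mice homozygous for df lack growth hormone, prolactin and thyrotropin in the whole body. The genotype labels were not checked against the ovary RNA here. The study asks, per its title, about reproductive ageing in these long-lived mice.

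Steroid hormone synthesis starts when cholesterol enters the mitochondrion. The protein Star carries cholesterol to the inner mitochondrial membrane, and this delivery is the acutely regulated step. There Cyp11a1, the side-chain cleavage enzyme, turns cholesterol into pregnenolone. Cyp11a1 needs electrons, which Fdxr (ferredoxin reductase) takes from NADPH and hands to Fdx1 (ferredoxin, also called adrenodoxin), and Fdx1 carries them to the enzyme. Outside the mitochondrial matrix Hsd3b1, a 3-beta-hydroxysteroid dehydrogenase, turns pregnenolone into progesterone. Por, the reductase of the endoplasmic reticulum, hands electrons to the microsomal cytochromes that use progesterone and pregnenolone further, such as Cyp17a1, and to many enzymes outside steroid synthesis. In the ovary the corpus luteum, formed from the follicle after ovulation, is the main source of progesterone. In mice and rats the pituitary hormone prolactin keeps the corpus luteum producing it.

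Both partners of the cleavage step lie on chromosome 9. In the deposited annotation (mm10), Cyp11a1 occupies chr9:58015017-58027023 on the plus strand with 9 exons, and Fdx1 occupies chr9:51943307-51963533 on the minus strand with 4 exons. Star lies at chr8:25808513-25815982 (plus strand, 7 exons), Fdxr at chr11:115268025-115276969 (minus, 12 exons), Hsd3b1 at chr3:98852197-98859794 (minus, 5 exons) and Por at chr5:135689214-135735325 (plus, 16 exons). No exon of a member overlapped an exon of another gene. The 250 bases before the start of Cyp11a1, Fdx1 and Fdxr are shown because these 3 genes act in a single step and their transcripts moved unequally between dwarf and normal mice. They are RefSeq sequences of GRCm38.p6, read in the direction of transcription, and capitals mark every match to a searched motif on either strand.
Cyp11a1, chr9:58014702-58014951, plus strand: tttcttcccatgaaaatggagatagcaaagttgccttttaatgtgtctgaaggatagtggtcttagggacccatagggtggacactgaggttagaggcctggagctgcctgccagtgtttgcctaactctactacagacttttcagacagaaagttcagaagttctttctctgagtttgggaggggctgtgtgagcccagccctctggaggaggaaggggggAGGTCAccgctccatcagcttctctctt
Fdx1, chr9:51963603-51963852, minus strand: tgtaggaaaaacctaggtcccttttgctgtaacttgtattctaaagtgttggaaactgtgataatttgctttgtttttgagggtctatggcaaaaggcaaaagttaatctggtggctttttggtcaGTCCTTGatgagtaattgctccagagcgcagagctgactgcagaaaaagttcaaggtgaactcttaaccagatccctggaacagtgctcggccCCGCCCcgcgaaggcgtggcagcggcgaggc
Fdxr, chr11:115276970-115277219, minus strand: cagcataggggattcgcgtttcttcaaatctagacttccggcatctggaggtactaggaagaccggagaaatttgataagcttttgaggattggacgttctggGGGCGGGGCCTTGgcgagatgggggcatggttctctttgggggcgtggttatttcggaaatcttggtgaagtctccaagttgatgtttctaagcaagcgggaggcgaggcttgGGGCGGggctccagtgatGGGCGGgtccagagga
The RefSeq start lay 65 bases before the deposited start for Cyp11a1, 69 bases before it for Fdx1 and 0 bases from it for Fdxr. RefSeq lists a further start of Cyp11a1 16993 bases upstream, which is not shown. In all 6 motifs were searched, on both strands. AAGGTCA (an extended nuclear receptor element, 4.08% of all 32851 windows of this length), TATAAA (the TATA box, 12.4%), TGACGTCA (the cAMP response element, 1.55%) and GGGCGG (the GC box, 32.7%) were searched first. CAAGGNC, the core bound by NR5A receptors, was searched after AAGGTCA had matched no member. AGGTCA, which AAGGTCA contains, was added after the sequences had been read, so its match was looked for where it was already seen. AGGTCA stood 28 bases before the start of Cyp11a1 and was found in 14.0% of windows. CAAGGNC stood on the opposite strand 124 bases before the start of Fdx1 and 141 bases before that of Fdxr, and 15.0% of windows held it. The Fdxr match directly follows a GC box. The GC box was found 1 time before Fdx1 (31 bases, opposite strand), 3 times before Fdxr (147, 34 and 16 bases) and 4 times before Por. Neither AAGGTCA nor the TATA box nor the cAMP response element was in any of the windows of Cyp11a1, Fdx1, Fdxr, Hsd3b1 and Por, and the Hsd3b1 window held none of the 6 motifs. A match is a string of letters and was not tested for binding.

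Levels are given in CPM, the reads of a gene per 1000000 reads counted in genes. Library totals ranged from 1365640 to 36068284 reads, and the lowest count of any member in a library was 119 reads (Fdx1). Several libraries stood apart and touch the results. Replicate 2 of the normal 6-month group had 4758 CPM of Ovgp1, an oviduct glycoprotein, against 9.94 to 60.7 in the other 4 of its group. Ovgp1 also stood at 1264 to 3053 CPM in the 10 libraries of 22 months, and at 431, 970.2 and 492 CPM in replicates 1, 2 and 4 of the dwarf 6-month group. Every 22-month library was thus above every 6-month library other than the normal replicate 2. In replicate 2 of the normal 6-month group the summed granulosa markers were 93.1 CPM against 2633 to 4510 in the other 4. Replicate 3 of that group was the shallowest library, with 14.8% of its reads on the ribosomal transcript Rn45s. Replicate 3 of the normal 22-month group had 1254 CPM over the markers of B and plasma cells, against 56.4 to 173 in the rest of its group. These 3 are the libraries in doubt below. Replicates 1 and 4 of the dwarf 22-month group were closer to each other than any other of the 40 pairs within groups. Their chi-square per degree of freedom was 2.42, and that of the next pair 11.6. They differed by more than counting noise, but 2 libraries of 1 ovary can do so too, so this cannot show that they are 2 mice. They were kept as 2 mice in all tests unless stated. The markers of granulosa, theca, luteal cells and oocytes were detected in every group, with none at 0 in all 5 libraries.

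Hsd3b1 was among the most abundant transcripts of the ovary. Per kilobase of exon its median level in normal mice at 6 months was 2837 CPM per kb, rank 5 of the 16099 genes. Cyp11a1 followed at 1674 CPM per kb (rank 20). Fdx1 stood at 263, Star at 184, Fdxr at 170.3 and Por at 95.4 CPM per kb in the same group. In dwarf mice at 6 months the order of the members was another one. Hsd3b1 remained the highest at 925 CPM per kb (rank 79), Fdxr was next at 99.4, Cyp11a1 stood at 84.2 (rank 713), and Fdx1 was the lowest at 22.6 (rank 3579). At 22 months Hsd3b1 stood at 1605 CPM per kb in normal mice (rank 21) and 1829.9 in dwarf mice (rank 16), and Cyp11a1 at 654 (rank 95) and 126 (rank 414). Few reads were counted for its close relatives. Summed over the libraries Hsd3b1 had 801106 reads, while Hsd3b2, Hsd3b3, Hsd3b5 and Hsd3b6 had 145, 73, 3 and 190, and 4.86% of the 50-base windows of its transcript occur in another gene's transcript. Hsd3b7, which acts in bile acid synthesis, had 11777 reads.

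**Figure D1:**
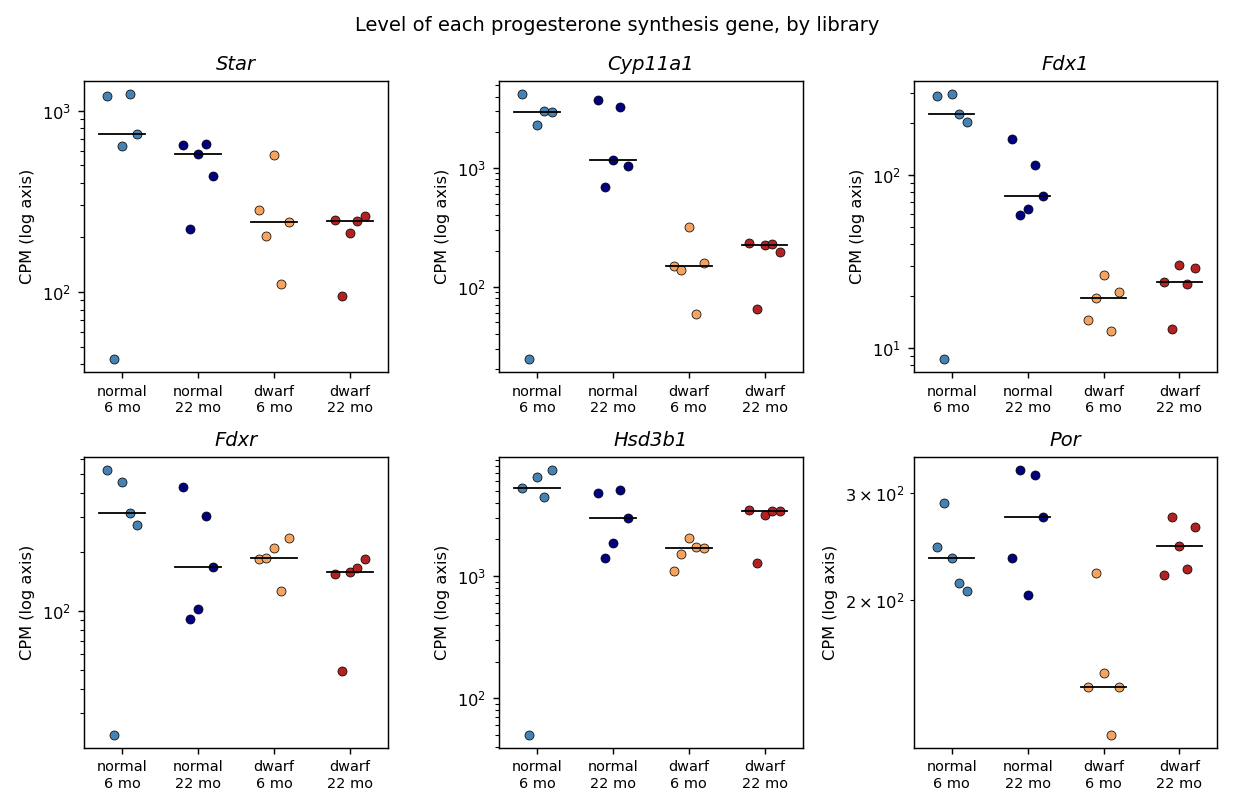
Level of each of the 6 genes in every library, in CPM on a log axis, with 5 libraries per group and a line at the group median. Cyp11a1 and Fdx1 are lower in all dwarf libraries than in all normal libraries except replicate 2 of the normal 6-month group, the low point in 5 of the 6 panels, while Por spans a narrow range.

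At 6 months Cyp11a1, Fdx1 and Por fell in dwarf against normal ovaries, and the other 3 members did not pass the test. Cyp11a1 was 15.5-fold and Fdx1 11.3-fold lower, and Por 1.58-fold lower. So 3 of 6 members were called lower, while 2.3% of all genes were called lower (4.57% in either direction) by edgeR's quasi-likelihood test at a Benjamini-Hochberg adjusted p under 0.05. The median log2 fold change of the 6 was -1.54, beside -0.039 over all genes. In bulk tissue fewer cells of a type and less RNA per cell cannot be told apart. Star, the carrier of cholesterol, had 1196, 42.9, 641, 1230.3 and 739 CPM in replicates 1 to 5 of the normal mice and 282, 204, 568, 111 and 243 CPM in those of the dwarf mice. Normal replicate 2 lay below every dwarf library, and the highest dwarf library lay under the other 4 normal ones. The log2 fold change of Star, -1.47 ± 0.58 (SE), did not pass the test (adjusted p = 0.167). The Cyp11a1 levels were 4179, 24.6, 2317, 3013 and 2969 CPM in normal mice. In dwarf mice they were 149, 139, 321, 58.8 and 158 CPM. Except for replicate 2, which lay below all dwarf libraries, each normal library was far above the highest dwarf library. The log2 fold change was -3.95 ± 0.83 (adjusted p = 0.00970). Fdx1, the electron carrier to Cyp11a1, stood at 289, 8.66, 295, 226 and 204 CPM in the normal libraries. The dwarf libraries held 14.6, 19.5, 26.5, 12.6 and 21.0 CPM. Again only replicate 2 of the normal mice lay within the dwarf range or below it. Fdx1 had a log2 fold change of -3.50 ± 0.59 (adjusted p = 0.00242).

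Fdxr, which passes electrons to Fdx1, was not called. Its levels were 525, 23.4, 453, 318 and 274 CPM in normal mice at 6 months. In dwarf mice they were 183, 185, 209, 126 and 236 CPM, all below the 4 normal libraries other than replicate 2. The log2 fold change was -0.82 ± 0.56 (adjusted p = 0.480), with a 95% interval of -1.92 to 0.29. Hsd3b1 had 5253, 50.5, 6546, 4418 and 7408 CPM in normal mice and 1099, 1532, 2067, 1739 and 1713 CPM in dwarf mice. Replicate 2 of the normal mice was again far below all others, and the log2 fold change of -1.61 ± 0.68 did not pass (adjusted p = 0.202). Por, the microsomal reductase, was the steadiest member, with 245, 289, 234, 213 and 208 CPM in normal mice and 144, 222, 152, 120.1 and 144 CPM in dwarf mice. Of the dwarf libraries only replicate 2, at 222 CPM, reached the normal range, and the highest normal library was replicate 2. Por had a log2 fold change of -0.66 ± 0.16 (adjusted p = 0.0197).

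Replicate 2 of the normal 6-month group widened the spread of 5 members. Without it the dwarf libraries lay below all 4 remaining normal libraries in Star, Cyp11a1, Fdx1, Fdxr and Hsd3b1, which is 5 of 6 members against 4.15% of all genes. Without that library 5 members were called lower, against 3.49% of all genes: Star by 3.36-fold (adjusted p = 0.00860), Cyp11a1 by 18.9-fold (adjusted p = 1.08e-04), Fdx1 by 13.7-fold (adjusted p = 1.23e-06), Hsd3b1 by 3.70-fold (adjusted p = 0.00215) and Por by 1.47-fold (adjusted p = 0.0403). Fdxr was not called (log2 fold change -1.09 ± 0.41, adjusted p = 0.105). Without all 3 libraries in doubt, 4 members were called lower, beside 5.64% of all genes, and Por was not (log2 fold change -0.48 ± 0.15, adjusted p = 0.0513). The Por call was also lost when dwarf replicate 1, 3, 4 or 5 was left out, with adjusted p up to 0.0796. In a fit of the 2 groups alone, Cyp11a1 (adjusted p = 0.0709) and Por (adjusted p = 0.0801) were no longer called.

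At 22 months the cleavage enzyme and its electron carrier were again lower in dwarf ovaries, and no other member was called. This is 2 of 6 members, beside 1.86% of all genes called lower and 3.81% called in either direction. The median log2 fold change was -1.01 over the 6 and -0.044 over all genes. Cyp11a1 levels were 3764, 688, 1161, 3290.3 and 1042 CPM in normal mice and 235, 65.0, 224, 229 and 195 CPM in dwarf mice. The groups did not overlap. Cyp11a1 was 11.0-fold lower, a log2 fold change of -3.46 ± 0.81 (adjusted p = 0.0225). Fdx1 levels were 162, 58.7, 63.6, 114 and 76.1 CPM in normal mice and 24.1, 12.8, 30.2, 23.7 and 29.1 CPM in dwarf mice, again without overlap. Fdx1 was 4.19-fold lower, a log2 fold change of -2.07 ± 0.56 (adjusted p = 0.0459). Groups that did not overlap, with the dwarf mice lower, were found in 2 of 6 members and 2.07% of all genes. Both calls were close to the threshold: the Fdx1 call was lost when any 1 of the 10 libraries was left out (adjusted p up to 0.118), and the Cyp11a1 call when normal replicate 1 or any 1 of the dwarf libraries was (adjusted p up to 0.0627). With dwarf replicates 1 and 4, the close pair, summed into 1 library, neither was called. Without the 3 libraries in doubt both were called, beside 5.4% of all genes called lower, with an adjusted p of 0.00115 for Cyp11a1 and 4.47e-04 for Fdx1.

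Star, Fdxr, Hsd3b1 and Por overlapped between the genotypes at 22 months. Star levels were 647, 222, 575, 658 and 437 CPM in normal mice and 251, 95.1, 213, 246 and 263 CPM in dwarf mice, where replicate 2 of the normal mice lay inside the dwarf range. The log2 fold change of -1.34 ± 0.58 had an adjusted p of 0.222, which was 0.0370 without replicate 2 of the normal 6-month group. Fdxr stood at 428, 90.7, 103, 306 and 167 CPM in normal mice and 155, 49.3, 158, 166 and 184 CPM in dwarf mice. Both groups covered much of the same range (log2 fold change -0.69 ± 0.56, adjusted p = 0.584). Hsd3b1, the last enzyme before progesterone, had 4784, 1412, 1866, 5111 and 2972 CPM in normal mice and 3481, 1272, 3187, 3389 and 3430.2 CPM in dwarf mice. Of the 5 normal libraries 2 lay above every dwarf library, and the other 3 lay above dwarf replicate 2 and below the other dwarf libraries. Its log2 fold change was -0.20 ± 0.66 (adjusted p = 0.935), with a 95% interval of -1.50 to 1.09, wide enough to hold a more than 2-fold change in either direction. Por had 235, 328, 204, 322 and 274 CPM in normal mice and 220.2, 274, 246, 225 and 264 CPM in dwarf mice, with a 95% interval of -0.54 to 0.070 for the log2 fold change of -0.23 ± 0.16 (adjusted p = 0.475).

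**Figure D2:**
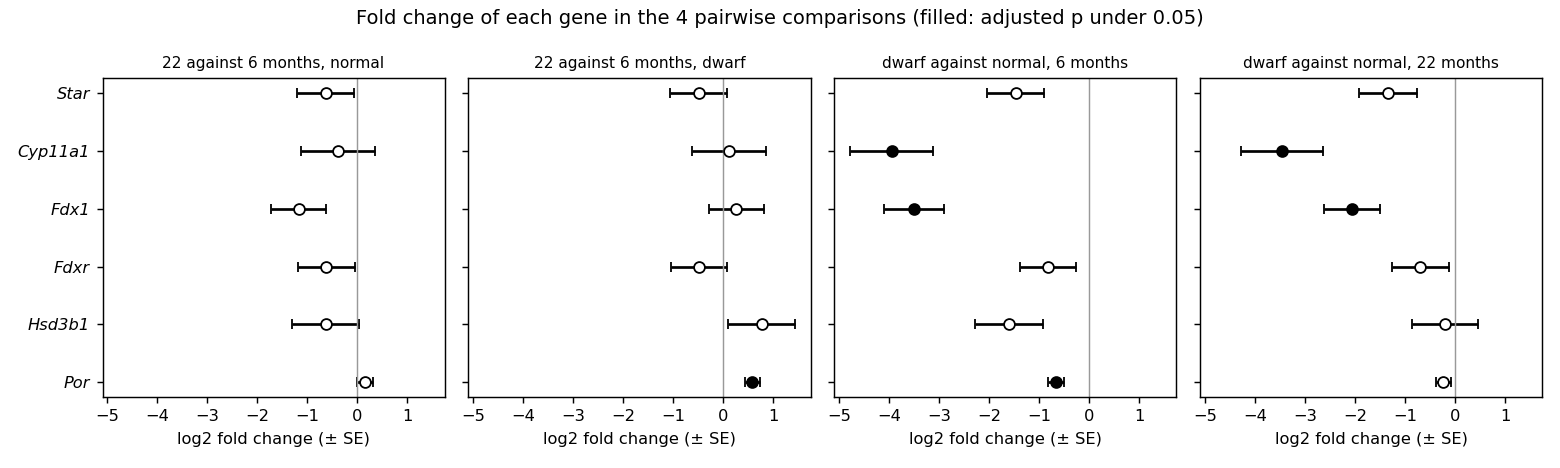
Log2 fold change ± SE of each gene in the 4 pairwise comparisons, from edgeR's quasi-likelihood fit over 20 libraries, with filled points for an adjusted p under 0.05. Cyp11a1 and Fdx1 lie farthest to the left in both comparisons of genotype, from -3.95 to -2.07, and the points of age lie nearer to 0.

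Luteal markers were lower in every dwarf library than in 4 of the 5 normal libraries at 6 months. The summed level of 7 luteal markers (Lhcgr, Prlr, Ptgfr, Akr1c18, Parm1, Sfrp4 and Timp3) spanned 317 to 2566 CPM in the normal 6-month libraries and 287 to 439 CPM in the dwarf ones. At 22 months it ranged from 516 to 3388 CPM in normal and from 472 to 845 CPM in dwarf mice. The mean log2 CPM of the same 7 markers, with 2 reads added to each count, did not overlap at 22 months. It ranged from 5.39 to 8.05 in normal and from 4.23 to 5.18 in dwarf mice. At 6 months it ranged from 3.41 to 7.68 and from 3.36 to 4.28. Replicate 2 of the normal 6-month group, the library low in 5 members, had the lowest luteal sum of its group. No luteal marker was at 0 in all 5 libraries of a group. Summed theca markers ranged from 255 to 1718 CPM in normal and 1029 to 1888 CPM in dwarf mice at 6 months, and from 613 to 1257 and 781 to 2076 CPM at 22 months. Summed granulosa markers ranged from 396 to 1579 CPM in normal and 1049 to 1894 CPM in dwarf mice at 22 months. Summed oviduct markers ranged from 41.0 to 7169 CPM in normal and 48.9 to 1856 CPM in dwarf mice at 6 months, and summed adipocyte markers from 48.3 to 378 and 21.9 to 83.0 CPM. The part of these marker levels in the differences of the members was not tested.

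Ratios of members within a library compare the transcripts of the steps with each other and do not depend on how libraries are scaled. Of 16 exact permutation tests (4 ratios in 4 comparisons, two-sided, 252 splits of 5 against 5 libraries), 9 passed a Benjamini-Hochberg adjusted p under 0.05, and the smallest p possible was 0.00794. The reads of Hsd3b1 per read of Cyp11a1 in replicates 1 to 5 were 1.26, 2.05, 2.83, 1.47 and 2.49 in normal mice at 6 months. In dwarf mice they were 7.36, 11.1, 6.45, 29.6 and 10.8. Every dwarf library was above every normal one, also the normal replicate 2 in which both genes were low. The ratio was 5.75-fold higher in dwarf mice (adjusted p = 0.0159). At 22 months the ratio was 1.27, 2.05, 1.61, 1.55 and 2.85 in normal mice and 14.8, 19.6, 14.2, 14.8 and 17.6 in dwarf mice, 8.96-fold higher without overlap (adjusted p = 0.0159).

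Within the electron chain, Fdxr reads per Fdx1 read were 1.81, 2.70, 1.54, 1.40 and 1.35 in normal mice at 6 months and 12.5, 9.53, 7.90, 10.0 and 11.2 in dwarf mice. The groups were far apart, with a 5.95-fold higher ratio in dwarf mice (adjusted p = 0.0159). At 22 months the ratio was 2.64, 1.55, 1.61, 2.67 and 2.19 in normal and 6.42, 3.84, 5.22, 7.00 and 6.34 in dwarf mice, 2.71-fold higher (adjusted p = 0.0159). Within dwarf mice it was lower at 22 than at 6 months in all libraries, by 1.80-fold (adjusted p = 0.0159). Fdx1 reads per Cyp11a1 read had a median of 0.0751 in the normal 6-month and 0.0548 in the normal 22-month group, and of 0.133 and 0.135 in the dwarf groups of these ages. The ratio was 2.42-fold higher in dwarf mice at 22 months (adjusted p = 0.0159), without overlap. At 6 months the difference of 0.20 in mean log2 ratio did not pass (adjusted p = 0.786), and it was 0.84 (adjusted p = 0.0571) without the 3 libraries in doubt.

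The ratio of Star reads to Cyp11a1 reads was higher in dwarf mice too. Star reads per Cyp11a1 read were 0.286, 1.74, 0.277, 0.408 and 0.249 in normal mice at 6 months, and 1.89, 1.47, 1.77, 1.88 and 1.54 in dwarf mice. All dwarf libraries had more Star than Cyp11a1 reads, while of the normal libraries only replicate 2 did. The ratio was 4.00-fold higher in dwarf mice (adjusted p = 0.0423), a call that was lost when dwarf replicate 1, 3 or 4 was left out (adjusted p up to 0.0564). At 22 months the ratio was 0.172, 0.322, 0.496, 0.200 and 0.419 in normal and 1.07, 1.46, 0.951, 1.07 and 1.34 in dwarf mice, 3.92-fold higher without overlap (adjusted p = 0.0159). Within dwarf mice it was 1.46-fold lower at 22 than at 6 months, again without overlap (adjusted p = 0.0159). In normal mice no ratio passed the test between the ages, with adjusted p from 0.114 to 0.786.

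**Figure D3:**
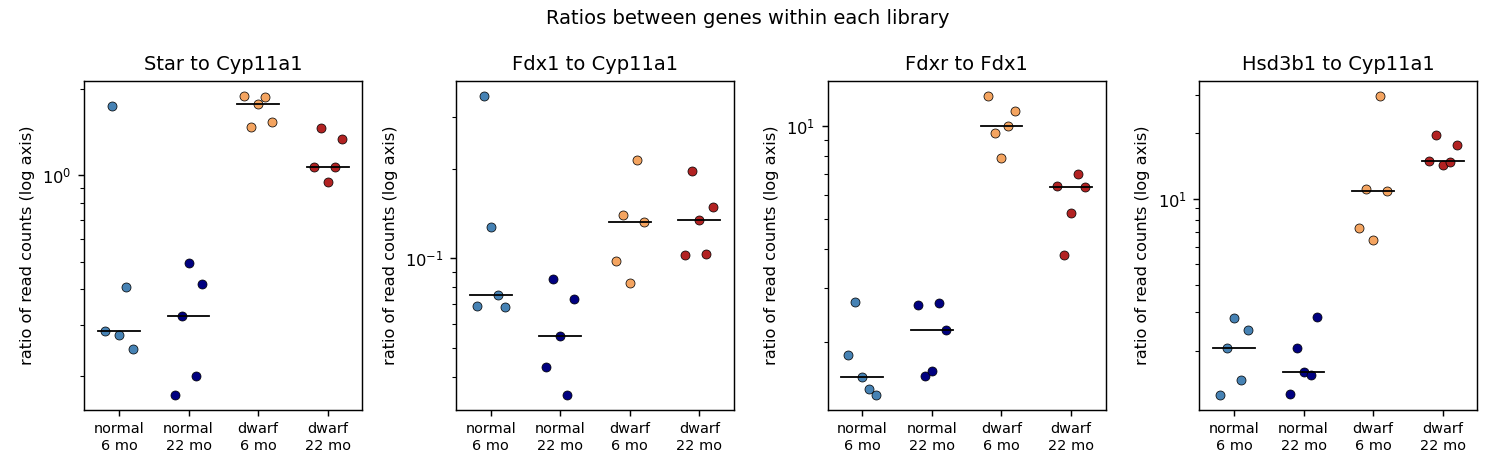
Ratio of the read counts of member genes within each library, on log axes, with 5 libraries per group and a line at the median. Hsd3b1 to Cyp11a1 and Fdxr to Fdx1 separate all dwarf from all normal libraries, while in Star to Cyp11a1 replicate 2 of the normal 6-month group lies at 1.74, among the dwarf values.

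Fewer members were called for age than for genotype. In normal mice none of the 6 members was called between 22 and 6 months by edgeR's quasi-likelihood test, beside 6.75% of all genes, and 1 (Fdx1) had an unadjusted p under 0.05, as did 23.3% of all genes. DESeq2 called none of the 6 and limma voom called 1, where both called more genes of all than edgeR did, as counted in the last section. The median log2 fold change was -0.62 over the members, with 5 of 6 below 0 as were 51.4% of all genes, whose median was -0.017. Fdx1 averaged 205 ± 116 CPM (SD, n = 5) at 6 months and 95.0 ± 43.6 CPM at 22 months, a log2 fold change of -1.17 ± 0.55 (adjusted p = 0.204). Without replicate 2 of the 6-month group, the Fdx1 groups did not overlap (5.22% of all genes were lower without overlap) and Fdx1 was called 2.70-fold lower (adjusted p = 0.00174), where 10% of all genes were called lower. In the same libraries summed oviduct markers were 41.0 to 364 CPM at 6 months and 2271 to 4236 CPM at 22 months. Summed granulosa markers were 2633 to 4510 and 396 to 1579 CPM, also without overlap. The part of this tissue makeup in the change of Fdx1 was not tested. Cyp11a1 averaged 2501 ± 1538 CPM at 6 months and 1989 ± 1425 CPM at 22 months, and the 22-month libraries ranged from 688 to 3764 CPM. Hsd3b1 averaged 4735 ± 2861 and 3229 ± 1672 CPM, and Star 769.8 ± 485 and 508 ± 183 CPM, at 6 and 22 months. Neither passed the test (adjusted p = 0.597 and 0.533). Fdxr averaged 319 ± 193 and 219 ± 145 CPM (adjusted p = 0.535), and Por 238 ± 32.6 and 273 ± 54.0 CPM (adjusted p = 0.572).

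In dwarf mice Por rose with age and no other member was called. This is 1 of 6 members, beside 2.92% of all genes called higher and 11.2% called in either direction. The median log2 fold change was 0.19 over the members and 0.002 over all genes. Por averaged 156 ± 38.5 CPM at 6 months and 246 ± 23.5 CPM at 22 months. Only replicate 2 of the 6-month group overlapped the older mice, and Por was 1.50-fold higher (log2 fold change 0.58 ± 0.16, adjusted p = 0.0220). The call was lost without 6-month replicate 1 or 4 or 22-month replicate 2 (adjusted p up to 0.0631). Markers of neighbouring tissues differed in the same comparison: 10 oviduct markers summed to 48.9 to 1856 CPM at 6 months and 2207 to 3956 CPM at 22 months, and 8 adipocyte markers to 21.9 to 83.0 and 122 to 405 CPM, both without overlap. None of these markers was at 0 in all 5 libraries of either group. Replicate 2 at 6 months, the young library with the highest Por level, had the highest oviduct and adipocyte sums of its group. The part of these tissues in the change of Por was not tested. Hsd3b1 averaged 1630.2 ± 354 CPM at 6 months and 2952 ± 946 CPM at 22 months. In 4 of 5 older libraries it exceeded all younger ones, while replicate 2 at 22 months lay among them. The log2 fold change of 0.77 ± 0.66 did not pass the test (adjusted p = 0.455), and it passed in limma voom (adjusted p = 0.0247) and in a fit of the 2 dwarf groups alone (adjusted p = 0.0350). Both of these fits called far more genes of all in this comparison than the main fit, as counted in the last section. Cyp11a1 averaged 165 ± 95.5 and 189.6 ± 71.3 CPM, a log2 fold change of 0.11 ± 0.74 (adjusted p = 0.941). Fdx1 averaged 18.8 ± 5.48 and 24.0 ± 6.87 CPM, a log2 fold change of 0.26 ± 0.55 (adjusted p = 0.777). For Star the means were 282 ± 172 and 213 ± 68.7 CPM (adjusted p = 0.586), and for Fdxr 188 ± 40.8 and 142 ± 53.3 CPM (adjusted p = 0.582).

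Whether age acted differently in the 2 genotypes was tested as an interaction, the age change in dwarf minus that in normal mice. No member was called, and no gene at all (0%), by edgeR's quasi-likelihood test. At an unadjusted p under 0.05 there were 1127 genes (7%) and none of the members, and DESeq2 and limma voom called 17 and 9 genes, no member among them. All 6 estimates were above 0, where 49.6% of all genes were below 0, with a median of 0.46 beside 0.004 over all genes. The largest were Fdx1 at 1.43 ± 0.77 (adjusted p = 0.781) and Hsd3b1 at 1.40 ± 0.94 (adjusted p = 0.860). Without replicate 2 of the normal 6-month group they were 1.73 ± 0.41 (adjusted p = 0.153) and 1.70 ± 0.47 (adjusted p = 0.171). On simulated data of the same depth the interaction test recovered 14% of 2-fold and 74% of 4-fold changes, so differences of this size can be missed. The changed genes were drawn from all genes averaging 2 CPM or more, so these shares are not those of the members. The SE of the interaction was 0.77 to 1.05 in the members other than Por, and 0.22 in Por.

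Genes that supply cholesterol or receive the hormonal signal were read from lists. Of 12 genes of cholesterol uptake and ester stores, 1 was lower in dwarf mice at 6 months and 0 at 22 months, none higher. Scarb1, the receptor that takes up cholesterol from high-density lipoprotein, averaged 1414 ± 846 CPM in normal and 312 ± 70.2 CPM in dwarf mice at 6 months. It was 4.63-fold lower (adjusted p = 0.0413). At 22 months the means were 775 ± 548 and 208 ± 49.6 CPM, and the log2 fold change of -1.97 ± 0.59 did not pass (adjusted p = 0.0700). Of 9 genes of cholesterol delivery other than Star, 1 was lower in dwarf mice at 6 months, Stard3nl by 1.61-fold (adjusted p = 0.0470), and 0 were called at 22 months. The medians of these lists for genotype, from -0.45 to -0.13, were nearer to 0 than those of the 6 members. Without the 3 libraries in doubt Scarb1 was called at both ages (adjusted p = 0.00339 and 0.0115), and of the 12 uptake genes 3 were lower at each age and 1 higher at 22 months. The Stard3nl call at 6 months was then lost (adjusted p = 0.0812), with 1 delivery gene higher and 1 lower. At 22 months 1 delivery gene was then higher, Stard5 by 1.80-fold (adjusted p = 0.0128), and 2 lower, among them Stard3nl by 1.39-fold (adjusted p = 0.0325). Over all genes this fit called 5.64% lower at 6 months and 5.4% at 22 months, against 2.3% and 1.86% with all libraries. The list counts below that leave out these 3 libraries come from the same fit.

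The receptors of the 2 pituitary hormones that maintain the corpus luteum were not called for genotype over all libraries. Lhcgr, the receptor of luteinising hormone, averaged 120.4 ± 113 CPM in normal and 19.7 ± 7.43 CPM in dwarf mice at 6 months. Its log2 fold change of -2.63 ± 0.82 did not pass (adjusted p = 0.0763). At 22 months it was -2.32 ± 0.82 (adjusted p = 0.125). Prlr, the receptor of prolactin, averaged 305 ± 185 and 122 ± 33.0 CPM at 6 months (adjusted p = 0.222) and 203 ± 117 and 156 ± 57.8 CPM at 22 months (adjusted p = 0.774), in normal and dwarf mice. Without the 3 libraries in doubt Lhcgr was called lower at both ages (log2 fold change -3.09 ± 0.60, adjusted p = 0.00478, and -2.23 ± 0.57, adjusted p = 0.0223), and Prlr at 6 months (-1.68 ± 0.43, adjusted p = 0.0193). In the list of 20 tested receptors and cAMP signalling genes, 1 was lower in dwarf mice at 6 months and 1 higher at 22 months. These were Stat5a, a transcription factor downstream of prolactin, which was 1.94-fold lower (adjusted p = 0.0491), and Pde8b, a phosphodiesterase that breaks down cAMP, which was 2.42-fold higher (adjusted p = 0.00465). Without the 3 libraries in doubt, 4 of the 20 were lower and 0 higher at 6 months, and 1 lower and 5 higher at 22 months.

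Nr5a1 and Nr5a2, nuclear receptors that drive steroid genes, were not called for genotype. Nr5a1, steroidogenic factor 1, averaged 418 ± 254 CPM in normal and 483 ± 90.9 CPM in dwarf mice at 6 months (adjusted p = 0.923), and 253 ± 100.1 and 432 ± 143 CPM at 22 months (adjusted p = 0.624). The 95% interval of its log2 fold change at 6 months was -1.02 to 1.37. Nr5a2, its relative in granulosa and luteal cells, averaged 126 ± 109 and 187 ± 41.4 CPM at 6 months (adjusted p = 0.703). Of 16 transcription factors of steroid genes, 1 was higher in dwarf mice at both ages and none lower, while without the 3 libraries in doubt 1 was higher and 1 lower at each age. The higher one was Nr0b1, known as Dax1, a repressor of Nr5a1 targets. Nr0b1 stood at 6.55, 1.17, 11.7, 6.60 and 7.08 CPM in normal and 32.7, 31.0, 22.8, 30.0 and 39.9 CPM in dwarf mice at 6 months. At 22 months it stood at 9.13, 4.64, 6.96, 2.89 and 5.59 CPM in normal and 32.5, 14.1, 27.1, 35.5 and 19.3 CPM in dwarf mice. The groups did not overlap at either age, and Nr0b1 was 4.88-fold higher at 6 months (adjusted p = 0.00490) and 4.05-fold higher at 22 months (adjusted p = 0.0113).

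Enzymes that use or remove progesterone moved in both directions. Of 16 tested genes of onward steroid synthesis, 3 were higher and 1, Akr1c18, lower in dwarf mice at each age. Akr1c18, the 20-alpha-hydroxysteroid dehydrogenase that inactivates progesterone in the corpus luteum, stood at 208, 1.75, 116, 392 and 89.4 CPM in normal and 1.15, 1.13, 0.539, 0.633 and 1.50 CPM in dwarf mice at 6 months. At 22 months it stood at 586, 25.0, 12.9, 13.1 and 66.2 CPM in normal and 1.60, 1.38, 2.16, 0.986 and 3.52 CPM in dwarf mice. No dwarf library reached a normal one of its age. Its log2 fold change was -7.29 ± 1.30 at 6 months (adjusted p = 0.00345) and -6.32 ± 1.27 at 22 months (adjusted p = 0.00970). Cyp17a1, which turns progestins into androgens and takes electrons from Por, was not called at 6 months (log2 fold change 0.50 ± 0.89, adjusted p = 0.825) or 22 months (2.06 ± 0.93, adjusted p = 0.244). The 3 that were higher at both ages were Cyp21a1, Hsd17b3 and Sult1e1. Without the 3 libraries in doubt, 5 of the 16 were higher and 3 lower at 6 months, and 3 higher and 3 lower at 22 months. That fit also called more genes of all than the main fit, with 5.64% and 5.4% lower at these ages.

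Cyp21a1 is the 21-hydroxylase, which acts on progesterone and is best known from the adrenal cortex. It averaged 1.35 ± 1.41 CPM in normal and 41.7 ± 23.0 CPM in dwarf mice at 6 months (log2 fold change 5.43 ± 0.84, adjusted p = 0.00137), and 1.54 ± 1.42 and 66.5 ± 33.2 CPM at 22 months (5.51 ± 0.79, adjusted p = 7.99e-04). The mouse genome holds a near-identical pseudogene of Cyp21a1, so its reads are uncertain. The adrenal genes Cyp11b1, Cyp11b2 and Mc2r had 67, 2 and 37 reads in total against 8076 of Cyp21a1. Each stayed under 2 CPM in every library. They belong to a list of 7 adrenal cortex markers with Cyp21a1, Mrap, Akr1b7 and Hsd3b2. The list summed to 3.71 to 141 CPM in normal and 31.1 to 130 CPM in dwarf mice at 6 months. At 22 months the sums were 27.8 to 120 and 18.8 to 115 CPM. In normal mice most of the sum came from markers other than Cyp21a1. Hsd17b3, the testis-type enzyme that makes testosterone, averaged 0.817 ± 1.19 CPM in normal and 29.0 ± 16.2 CPM in dwarf mice at 6 months (log2 fold change 6.18 ± 0.78, adjusted p = 2.37e-04). Sult1e1, the oestrogen sulfotransferase, averaged 0.188 ± 0.309 and 10.7 ± 4.84 CPM at that age (6.91 ± 0.79, adjusted p = 1.73e-04). For both the groups did not overlap at either age.

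**Figure D4:**
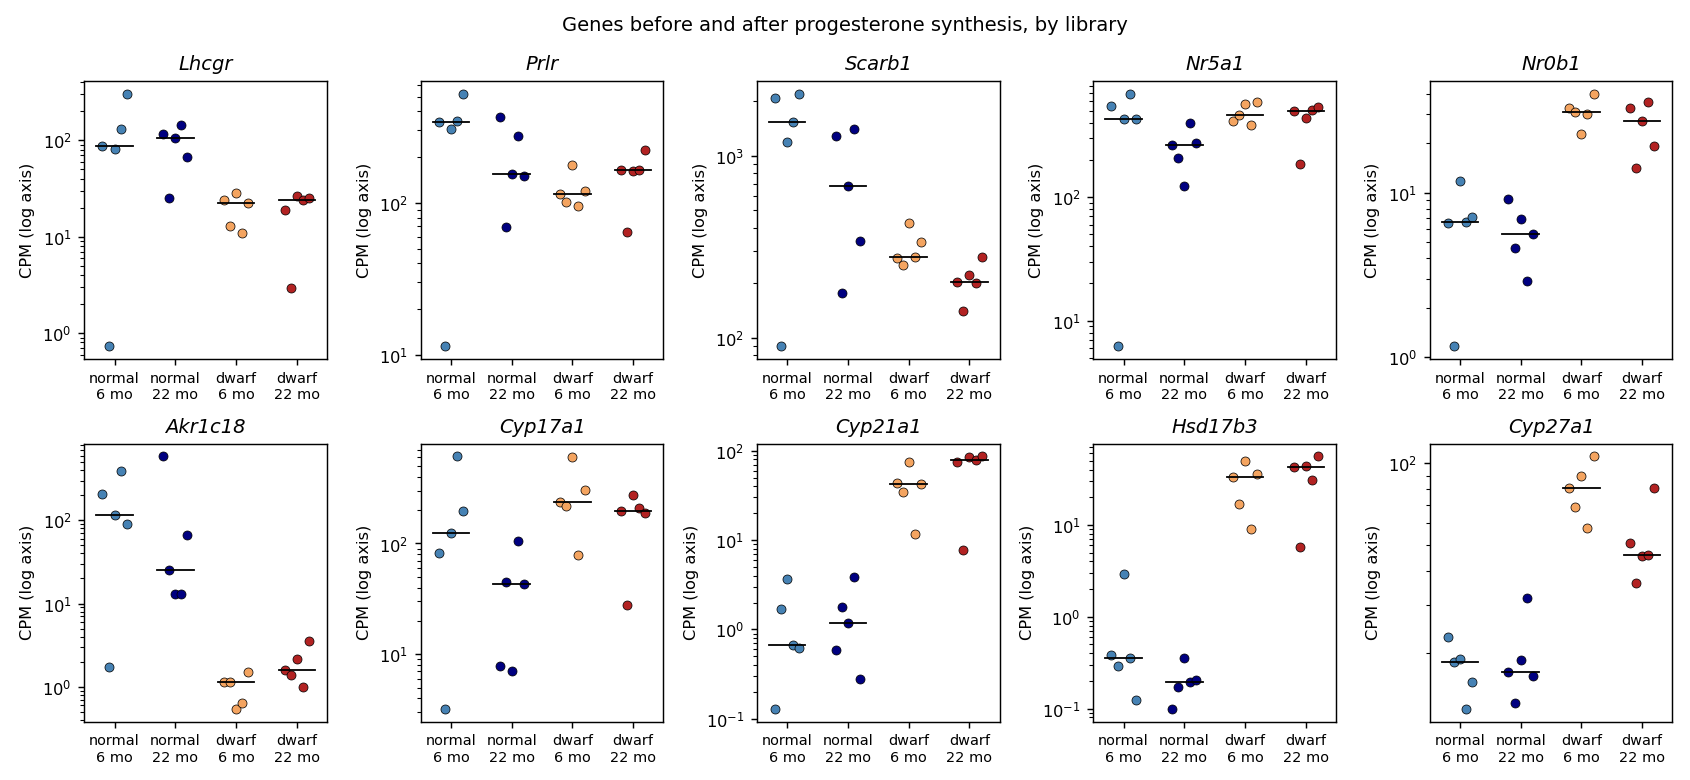
Levels of 10 genes upstream and downstream of progesterone synthesis in every library, in CPM on log axes, with a line at the group median (5 libraries per group). Akr1c18 is lower and Nr0b1, Cyp21a1, Hsd17b3 and Cyp27a1 are higher in all dwarf libraries than in all normal libraries of the same age, while Nr5a1 and Cyp17a1 overlap.

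The other genes around the electron chains were mostly not called. Of 13 tested partners of Fdx1 and Fdxr outside the members, 1 was higher in dwarf mice at each age and none lower. This was Cyp27a1, a mitochondrial sterol hydroxylase that takes electrons from Fdx1. Cyp27a1 averaged 17.7 ± 3.92 CPM in normal and 80.7 ± 18.7 CPM in dwarf mice at 6 months, 4.51-fold higher (adjusted p = 2.37e-04). At 22 months it was 2.54-fold higher (adjusted p = 0.00627). The groups did not overlap at either age, with Cyp27a1 higher where Fdx1 and Cyp11a1 were lower. Of 4 tested paralogs of Hsd3b1 and Fdx1, none was called for genotype. The paralog of Fdx1, listed as Fdx1l, stayed under 3 CPM in every library (adjusted p = 0.342 and 0.518 for genotype) and was 2.52-fold lower at 22 than at 6 months in dwarf mice (adjusted p = 0.0386). In the list of 13 genes around Por, which also holds the mitochondrial Cyp27a1, Cyp27a1 was the 1 gene called higher and Hmox1 the 1 called lower in dwarf mice at each age. Hmox1, the haem oxygenase fed by Por, was 4.01-fold lower at 6 months (adjusted p = 0.00885) and 4.18-fold lower at 22 months (adjusted p = 0.0102). Without the 3 libraries in doubt, 1 of these 13 was higher and 4 lower at 6 months, and 1 higher and 2 lower at 22 months. Of the 13 partners of Fdx1 and Fdxr, 1 was then higher at 6 and 2 at 22 months, none lower.

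With age, a few genes of these lists were called in both genotypes. Cyb5b, a mitochondrial outer membrane cytochrome of the list around Por, was 1.38-fold higher at 22 months in normal mice (adjusted p = 0.0184) and 1.59-fold higher in dwarf mice (adjusted p = 0.00148). Atad3a, a mitochondrial membrane protein of the delivery list, was 1.43-fold and 1.63-fold lower (adjusted p = 0.0341 and 0.00552). Hsd11b2, which inactivates glucocorticoids, was 3.20-fold and 3.34-fold lower (adjusted p = 0.0117 and 0.00572). In dwarf mice Stard5, a sterol-binding protein, was 1.69-fold higher (adjusted p = 0.0213) and Paqr5, a membrane progesterone receptor, 2.56-fold higher (adjusted p = 0.0283), without a called difference of the age changes between the genotypes. Paqr5 was also called higher with age in normal mice without the 3 libraries in doubt, by 2.38-fold (adjusted p = 0.0240). Pgr, the nuclear progesterone receptor, was not called for age or genotype over all libraries (adjusted p from 0.359 to 0.814). In normal mice it stood at 2.18, 58.0, 5.13, 2.94 and 3.39 CPM at 6 months and 7.45, 88.5, 23.3, 13.5 and 32.7 CPM at 22 months, and replicate 2 at 6 months was far above the other young libraries. Its age change in normal mice was 2.26-fold, and without the 3 libraries in doubt 13.0-fold higher at 22 months, without overlap (adjusted p = 0.0274). That fit called far more genes in this comparison than the main fit, as counted in the last section. Replicate 2 at 6 months, left out there, had 7169 CPM of summed oviduct markers against 41.0 to 364 in the other young normal libraries. The normal libraries of 22 months held 2271 to 4236 CPM of them. The part of oviduct tissue in the change of Pgr was not tested. Of the 7 genes of progesterone receptors and binding, 1 was lower in dwarf mice, Paqr8 at 6 months by 2.21-fold (adjusted p = 0.0168).

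Among the pairs of members, Cyp11a1 and Fdx1 had the highest correlation over the 20 libraries. Pearson's r of their log2 CPM was 0.97, and 0.98 over the 17 libraries without the 3 in doubt. Cyp11a1 had an r of 0.93 with Star, 0.77 with Fdxr, 0.74 with Hsd3b1 and 0.32 with Por. These values describe libraries that share group, depth and cell makeup, and carry no test. Among 14119 genes compared, those most like each member were named by the highest r. For Cyp11a1 they included Clstn3 (0.95) and Kcnab3. For Fdx1 they included Wisp2 (0.96) and Tmem86a. Over the 17 libraries Tmem86a was the most like for both, with 0.98 for Cyp11a1 and 0.98 for Fdx1. Star was most like Lhcgr (0.93), Lipg and Ttyh2. Fdxr was most like Pcolce (0.96), Mrap and Abhd4. Hsd3b1 was most like Gm10220 (0.96), Prlr (0.95) and Hao2 (0.95), the gene next to it on chromosome 3. Por was most like Trim16 (0.87), Pcp4 and Hist1h2bc, and its r with each other member was at most 0.37. Over the 17 libraries the closest genes were Syt12 for Star, Mrap for Fdxr, Hao2 for Hsd3b1 and Wnt5a for Por.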

How the data were processed

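Polyadenylated RNA of ovaries from 20 mice was measured, 1 library per mouse. The deposited values are whole-number read counts per gene, one table per library; per the submitters' processing notes Bowtie2, TopHat2 2.0.10 and HTSeq with the mm10 genome were used, and neither the strand setting nor the annotation release is stated there. The 5 summary rows, 9.84 to 17.6% of the counts, were left out of library totals, CPM and tests. From the counts, edgeR 4.0.16 (R 4.3.3) was run over all 20 libraries with 1 mean per group, TMM scaling and filterByExpr (minimum count 10, minimum total 15), and its quasi-likelihood test was adjusted by Benjamini-Hochberg over 16099 genes, with calls at an adjusted p under 0.05. The SE is the log2 fold change divided by the square root of the F statistic, and 95% intervals take the normal distribution. Tests of member ratios were exact two-sided permutation tests on mean log2 ratios of counts plus 0.5. Reads of 1 gene per read of another are given without that addition. Reads per library, 1365640 to 36068284, set the counting precision, and the spread between mice (common dispersion 0.165) exceeded it. On simulated data of 16099 genes, 40% of 2-fold and 85% of 4-fold changes were recovered for genotype at 6 months, and 35% and 81% at 22 months. The changed genes were drawn from all those averaging 2 CPM or more, so these shares are not those of the members. Alternatives were RLE and upper quartile scaling, other filters, DESeq2 1.42.0, limma 3.58.1 voom with quality weights, fits of the compared groups alone, a replicate block and libraries left out. The members, gene lists, marker lists and tests were chosen with earlier results of these data known. Genes outside the members were named from a panel of 12, as up to 5 called genes of smallest p per list and comparison, or as the 3 most correlated genes averaging 2 CPM or more; Hsd3b2, Hsd3b3, Hsd3b5 and the markers of other cell types serve as checks. Some genes that these rules name are not reported here.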

Additional observations from a re-analysis of the deposited data

Results flagged for a closer look

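Of 40 groups of 5 libraries checked (6 genes and 4 ratios in 4 groups), 4 held a library far from the other 4 by Dixon's criterion, where chance gives about 1 in 20. The genes were checked in CPM without logs and the ratios in log2. Replicate 2 of the dwarf 22-month group was the lowest of its group in Cyp11a1 (65.0 CPM, nearest 195 CPM), in Fdxr (49.3 CPM, nearest 155 CPM) and in Hsd3b1 (1272 CPM, nearest 3187 CPM). Its Lhcgr level was 2.96 CPM. Without it, Cyp11a1 at 22 months had a log2 fold change of -3.23 (adjusted p = 0.0514) and Fdx1 one of -1.89 (adjusted p = 0.0993), by edgeR's quasi-likelihood test, and 9 ratio tests were still called. Replicate 2 of the normal 6-month group had the highest log2 ratio of Star to Cyp11a1 of its group, 0.800, with the nearest library at -1.29. On the CPM scale that library was flagged for no gene, though its Cyp11a1 level was 24.6 CPM with the nearest at 2317 CPM.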

How the results depend on the processing

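Each member had 119 reads or more in every library. For age in normal mice 0 members were called, and 1 with voom and 1 without the 3 libraries in doubt. For age in dwarf mice 1 was called, and 2 with voom and 2 in a fit of those groups alone. For genotype at 6 months 3 were called, 5 with voom and 1 in a fit of those groups alone. For genotype at 22 months 2 were called, 1 with upper quartile scaling, 1 without a filter, and 0 with dwarf replicates 1 and 4 summed or without the 3 libraries whose titles carry the highest numbers. Leaving out 1 library each gave 0 to 1, 0 to 1, 2 to 5 and 0 to 3 members in these comparisons, and 0 for the interaction. Over all genes, DESeq2 called 1766, 2747, 1414, 1201 and 17 genes in the age comparison of normal and of dwarf mice, the genotype comparison at 6 and at 22 months and the interaction, against 1086, 1802, 735, 614 and 0. In the same order voom called 3859, 7519, 1860, 2291 and 9, and the fit without the 3 libraries in doubt 4848, 4697, 1991, 1762 and 202. Fits of the compared groups alone called 0, 5169 and 244 in the first 3 comparisons. Summing the 2 close libraries gave 1107 genes in the dwarf age comparison and 272 in the 22-month genotype comparison, and leaving out the 3 highest title numbers gave 188 in the normal age comparison and 323 in the 22-month genotype comparison. Leaving out 1 library gave 481 to 4384, 802 to 2995, 369 to 1459, 262 to 1157 and 0 to 1. The share of calls at 22 months that were higher in dwarf mice was 51.3%, and 65.1% with upper quartile scaling.

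Estimates that changed sign were all uncalled. With the replicate block, Cyp11a1 for age in dwarf mice was -0.12, and the interaction of Star -0.12 and of Fdxr -0.25, which was -0.051 without the 3 highest title numbers. The log2 ratio of Hsd3b1 to Cyp11a1 for age in normal mice was 0.15 without the 3 libraries in doubt, and that of Star to Cyp11a1 0.17 as a difference of medians. Leaving out 1 library gave -0.072 to 0.53 for Cyp11a1 with age in dwarf mice, -0.37 to 0.018 for Hsd3b1 at 22 months, -0.081 to 0.54 and -0.13 to 0.51 for the interactions of Star and Fdxr, -0.27 to 0.034 for Hsd3b1 to Cyp11a1 with age in normal mice, and -0.076 to 0.27 for Fdx1 to Cyp11a1 with age in dwarf mice. Of 16 ratio tests 9 were called, 0 as differences of medians, 8 to 9 with 1 library left out, and 0 with the replicate block, where the smallest possible p of 0.0625 cannot pass. Libraries with the same replicate number in the titles were not alike as a rule. Of 20 such pairs, with r from -0.215 to 0.719, 7 were over 0.1 and 5 correlated best with their own number. Whether the numbers pair the mice cannot be told from these correlations. The replicate block left the counts of members called at 0, 1, 3, 2 and 0. The causes of these changes were not tested.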
